A study of Rattus norvegicus with 8 samples.

Results

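The genes described are 34 genes of the lysosome and of autophagy, measured in rat liver. They are a list of names set by role, put together when earlier results of these data were known, and no measured value enters the rule. Each was found on the array through the RefSeq accession of its probe. All 34 were among the 25128 genes tested, 9977 of which carry a symbol, and all 34 were well above background on all 8 arrays. The samples were livers of male Wistar/ST rats, all fed high-fat chow with water rich in fructose over 5 weeks. In 4 samples (Control) the water held nothing further that the labels name, and in 4 samples (Eucommia) the rats also drank an extract of Eucommia ulmoides leaves. The age of the rats is not given in the sources used here. RNA of whole liver was labelled with Cy3 and hybridised to Agilent arrays with 1 colour channel, 1 sample to an array.

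Lysosomes are acidic compartments in which hydrolases break down proteins, sugars and lipids, while membrane proteins hold the acidity, export the products and let other vesicles fuse. In autophagy a double membrane, the autophagosome, closes around cytoplasm, lipid droplets or organelles and delivers them to the lysosome. ATG8-family proteins are coupled to lipid on that membrane by an enzyme cascade, and in liver the pathway is known for its part in fasting and in the turnover of stored fat. The transcription factor TFEB switches on many genes of both compartments through promoter elements with the core CACGTG.

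Hepatocyte markers were well above background on all 8 arrays for 10 of 10 genes. Log2 levels of the genes tested, where present on every array, correlated at 0.985 to 0.989 among Control arrays. The correlations were 0.990 to 0.994 among Eucommia arrays and 0.962 to 0.973 between the groups. The Control arrays shared 1 slide and the Eucommia arrays another, so that slide and treatment cannot be told apart anywhere in these data. The labels mention the liver of each rat but do not state that the arrays represent separate animals, and p-values refer to the spread between samples, which may be technical. Of all 25128 genes, 4623 rose and 1551 fell (limma, Benjamini-Hochberg adjusted p under 0.05). On average 59.8% of spots were well above background on Control arrays and 70.7% on Eucommia arrays. The lowest such signal averaged 12.7 and 5.90. Genes were tested if above background on 4 of the 8 arrays, so some were seen in 1 group only. The part of this in the share of genes that rose was not tested.

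Of the 34 genes, none rose and 2 fell with the leaf extract. Lamp2, a major protein of the lysosomal membrane, fell 1.44-fold, and Gabarapl1, an ATG8-family protein of the autophagosome, fell 1.30-fold. That is 5.88% of the genes, where 24.6% of all genes tested passed the same limma threshold, 18.4% upwards and 6.17% downwards. Among the 20100 genes that, like these 34, were above background on all arrays, 18.6% passed, 11.6% upwards and 6.93% downwards. At an unadjusted limma p under 0.05, 2 of the 34 genes were higher and 4 lower (17.6%), against 35.7% of all genes tested, 23.2% higher and 12.5% lower. Of the 20100 genes above background on all arrays, 6013 had an unadjusted limma p under 0.05, 3154 higher and 2859 lower. Of the 34 genes, the 32 that did not pass the adjusted threshold gave 13 positive and 19 negative log2 differences. The median log2 difference, Eucommia minus Control, was -0.03 over the 34 genes and 0.02 over all genes tested, and the median size of the difference without its sign was 0.14 against 0.23. Over the 20100 genes above background on all arrays these medians were -0.02 and 0.19. Over all the alternative settings the median of the 34 genes ran from -0.29 to 0.00, from 0 to 3 of them rose and from 1 to 18 fell. For 25 of the 34 genes the 95% interval of the difference lay within 0.5 log2 units of 0. The arrays of both groups did not overlap for 7 of the 34 genes (20.6%), as for 28.5% of all genes tested and 23.6% of those above background on all arrays. Mcoln1, Gaa and Map1lc3a were separated upwards (19.8% of all genes), and Lamp2, Npc2, Atg5 and Gabarapl1 downwards (8.68% of all genes). Levels are given below as the log2 of the processed signal minus the array's 75th percentile, so that 0 stands for the signal at that percentile, and they are compared between arrays for the same gene only.

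**Figure D1:**
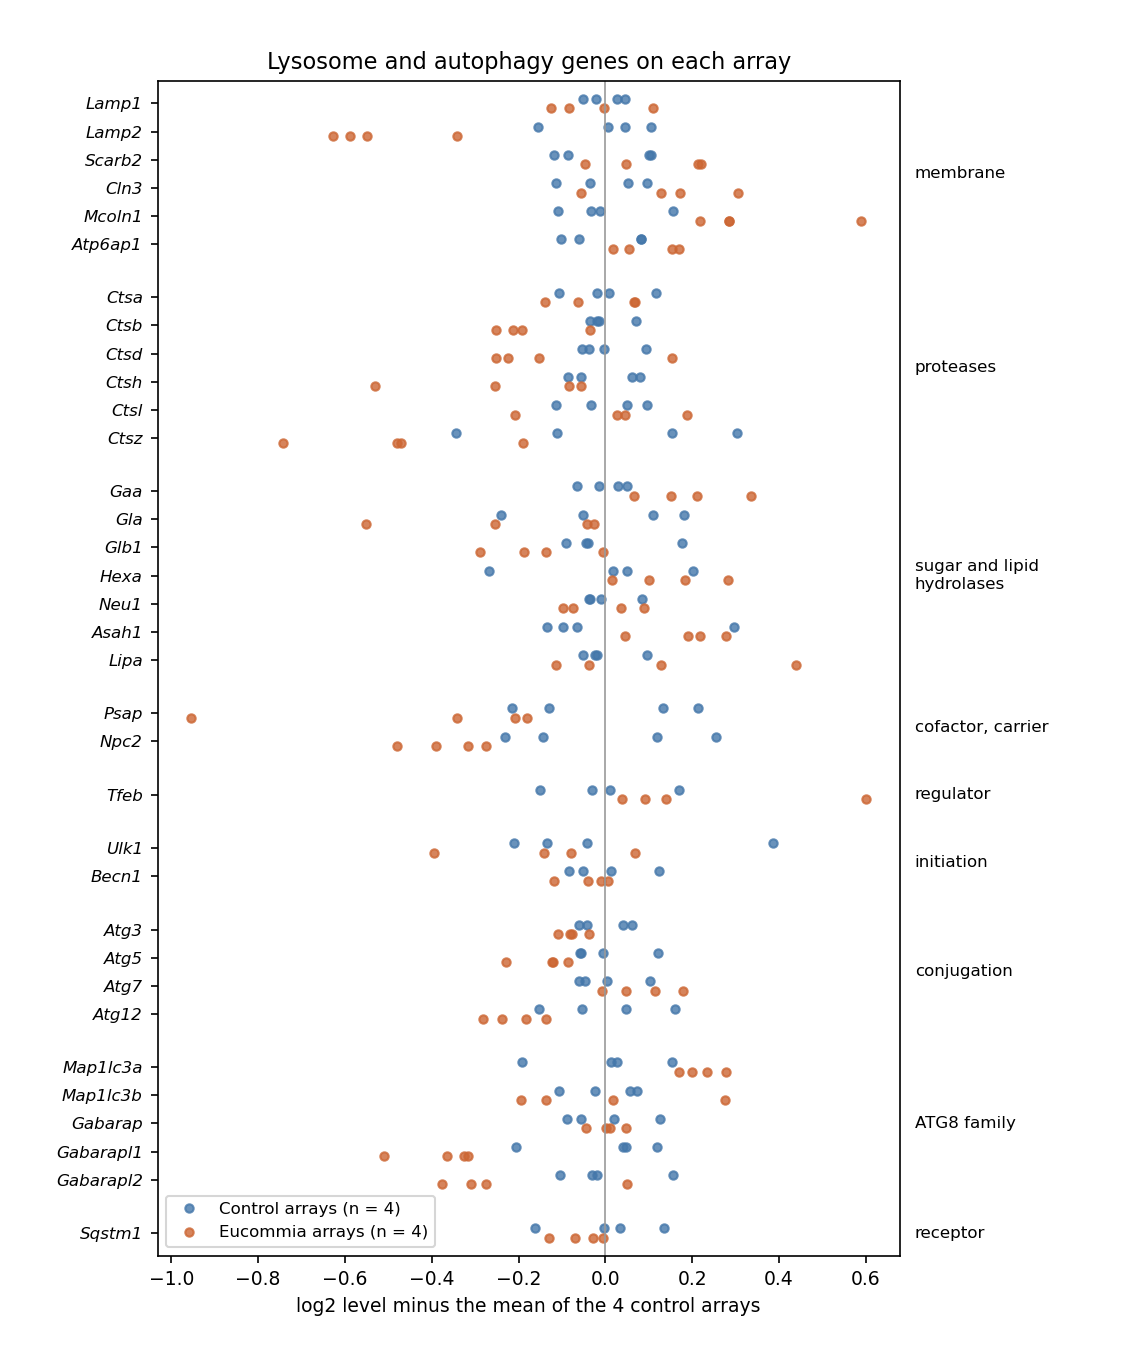
Log2 difference of each of the 34 genes on each of the 8 arrays from that gene's mean over the 4 Control arrays, ordered by role. Lamp2 and Gabarapl1 are lower on all 4 Eucommia arrays than on any Control array, and most other genes show a mixture of small differences of either sign.

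Tfeb, the transcription factor of the pathway, stood at -1.86, -1.54, -1.70 and -1.74 on Control arrays 1 to 4 and at -1.57, -1.62, -1.67 and -1.11 on Eucommia arrays 1 to 4. The groups overlapped, and Eucommia array 4 held the highest value. The log2 difference was 0.22 ± 0.14 (SE, n = 4 and 4, limma adjusted p = 0.313). Promoter sequences of 28 of the 34 genes were found in a RefSeq table of assembly GRCr8 and searched for the E-box core of the TFEB element, CACGTG, and for the longer TCACGTGA, which contains it. Both motifs read the same on either strand, and the window ran from 250 bases before the annotated start to 50 bases after it. CACGTG lay in the promoters of 8 of the 28 genes (28.6%), against 8.73% of the 8561 promoters of tested genes and 6.42% of all 33469 promoters in the table. TCACGTGA lay in 5 of the 28 (17.9%), against 1.57% and 0.777%. The median GC content was 61.0% in the promoters of these genes and 59.3% in those of tested genes.

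The stretches of those 8 promoters upstream of the start are printed because they show how many copies of the core each gene carries. They run 5′ to 3′ on the strand of the gene, with CACGTG in capitals.
Lamp1: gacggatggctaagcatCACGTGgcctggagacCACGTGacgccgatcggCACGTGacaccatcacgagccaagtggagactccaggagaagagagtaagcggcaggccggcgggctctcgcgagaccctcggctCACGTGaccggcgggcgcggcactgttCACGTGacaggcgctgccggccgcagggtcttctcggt
Mcoln1: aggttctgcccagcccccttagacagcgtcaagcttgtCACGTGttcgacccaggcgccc
Cln3: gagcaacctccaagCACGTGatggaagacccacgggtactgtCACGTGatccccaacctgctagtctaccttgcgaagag
Ctsd: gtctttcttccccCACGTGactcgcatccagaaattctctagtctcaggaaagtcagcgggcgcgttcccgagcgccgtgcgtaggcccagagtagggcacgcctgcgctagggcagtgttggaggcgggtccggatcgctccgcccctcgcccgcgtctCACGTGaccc
Glb1: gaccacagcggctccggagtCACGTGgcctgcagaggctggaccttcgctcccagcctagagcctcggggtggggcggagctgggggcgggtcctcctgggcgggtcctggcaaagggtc
Gaa: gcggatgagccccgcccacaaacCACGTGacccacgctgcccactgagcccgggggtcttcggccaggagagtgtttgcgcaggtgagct
Atg3: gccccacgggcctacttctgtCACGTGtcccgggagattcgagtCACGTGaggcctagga
Atg5: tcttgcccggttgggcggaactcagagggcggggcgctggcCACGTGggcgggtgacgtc
In GRCr8 they lie at chr16:83075064-83075263 (Lamp1, minus strand), chr12:6358198-6358257 (Mcoln1, plus strand), chr1:190597930-190598009 (Cln3, minus strand) and chr1:206968822-206968991 (Ctsd, minus strand). The others lie at chr8:122963598-122963717 (Glb1, plus strand), chr10:105028265-105028354 (Gaa, plus strand), chr11:69159281-69159340 (Atg3, minus strand) and chr20:49380775-49380834 (Atg5, plus strand). Lamp1 held 5 copies of the core, beginning at -183, -167, -150, -65 and -38 from the start. Cln3, Ctsd and Atg3 held 2 copies each within the window, and Glb1, Gaa and Atg5 held 1. Mcoln1 held 1 copy at -22 and another at position 5 after the start, which is not printed. The longer TCACGTGA occurred in Lamp1, Mcoln1, Cln3, Ctsd and Atg3. None of these 8 genes passed the expression test, and their log2 differences ran from -0.15 (Glb1) to 0.34 (Mcoln1).

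Of the 28 promoters, 20 lacked CACGTG in the window, and with it the longer motif. Those of both genes that fell, Lamp2 and Gabarapl1, were among these 20. The bases just before their starts are printed for comparison with the 8 above, in lower case throughout because no core is present.
Lamp2: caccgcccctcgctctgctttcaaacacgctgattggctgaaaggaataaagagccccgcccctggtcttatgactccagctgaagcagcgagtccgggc
Gabarapl1: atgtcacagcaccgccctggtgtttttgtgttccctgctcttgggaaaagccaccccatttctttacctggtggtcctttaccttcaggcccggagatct
They lie in GRCr8 at chrX:122087674-122087773 (Lamp2, minus strand) and chr4:164666232-164666331 (Gabarapl1, plus strand). A match, or the lack of one, describes these letters only, and binding of TFEB was not measured.

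The 6 proteins of the lysosomal membrane included the clearest fall. Lamp2, the partner of Lamp1 in the membrane and the receptor, in one of its isoforms, for chaperone-mediated autophagy, stood at 4.15, 3.95, 4.12 and 4.21 in Control and at 3.52, 3.56, 3.77 and 3.48 in Eucommia. The lowest Control array lay above the highest Eucommia array. Lamp2 fell by 0.53 log2 units (SE 0.10, 95% interval -0.76 to -0.30, limma adjusted p = 0.00468, n = 4 and 4), from a mean of 4.11 ± 0.11 (SD) to 3.58 ± 0.13. Its single probe was designed on 1 RefSeq transcript, and the isoforms were not measured separately. In whole liver, fewer cells of a type and less RNA per cell cannot be told apart, here and for every gene below.

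Lamp1, which shares the membrane with Lamp2, stood at 5.18, 5.10, 5.13 and 5.20 in Control and at 5.07, 5.03, 5.26 and 5.15 in Eucommia. The groups overlapped, with a log2 difference of -0.03 ± 0.09 (SE, 95% interval -0.22 to 0.17, limma adjusted p = 0.865). Mcoln1, a calcium channel of the lysosomal membrane, stood at 3.25, 3.08, 3.06 and 2.99 in Control and at 3.31, 3.38, 3.38 and 3.68 in Eucommia. Every Eucommia array lay above every Control array, and the difference of 0.34 ± 0.11 (SE, 95% interval 0.09 to 0.60) did not pass (limma adjusted p = 0.0521). Without Control array 1 it passed (0.40, limma adjusted p = 0.0412), and with median centring in place of the 75th percentile it was 0.09. Scarb2, which carries glucocerebrosidase to the lysosome, Cln3, the membrane protein lost in juvenile Batten disease, and Atp6ap1, an accessory subunit of the proton pump, differed by 0.11, 0.14 and 0.10, with limma adjusted p-values of 0.503, 0.386 and 0.475. Their groups overlapped.

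**Figure D2:**
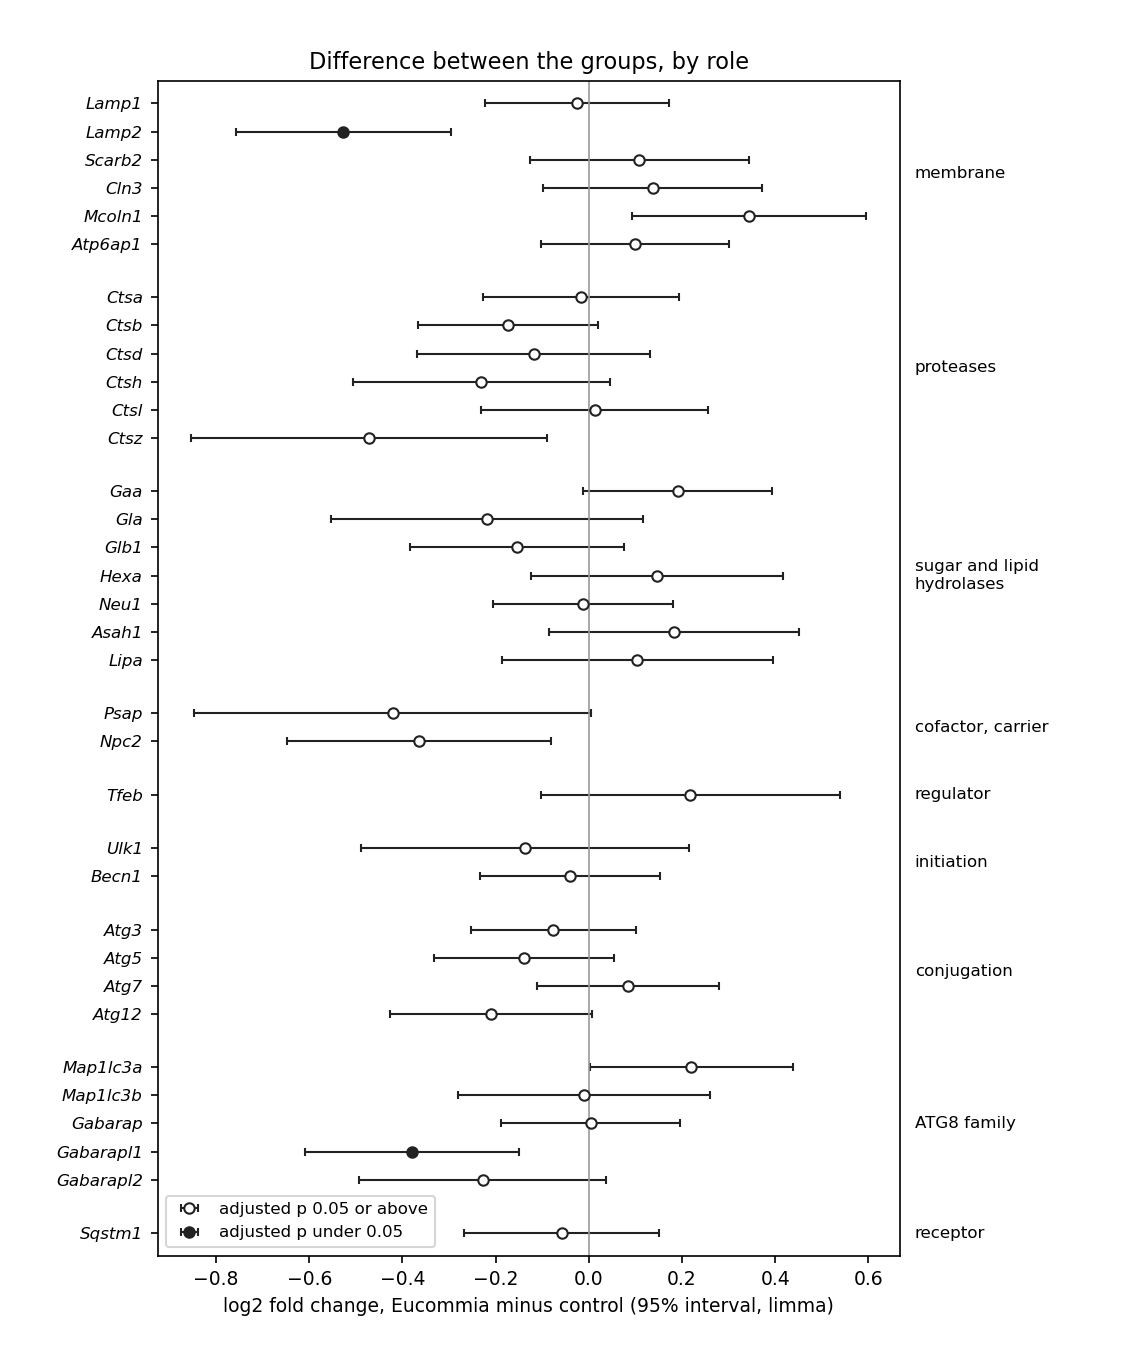
Log2 difference, Eucommia minus Control, of the 34 genes with its 95% interval from limma (n = 4 and 4), grouped by role; filled points passed the adjusted threshold. Lamp2 at -0.53 and Gabarapl1 at -0.38 are the filled points, and Mcoln1 at 0.34 is the highest value.

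None of the 13 lysosomal hydrolases passed the test in limma, and 1 (Ctsz) had an unadjusted p under 0.05. Of the 6 proteases, 5 had a negative difference and the median was -0.15. Ctsb, a cysteine protease of the lysosome, ran from 8.18 to 8.28 in Control and from 7.96 to 8.18 in Eucommia. Eucommia array 4 lay level with the lowest Control arrays, and the difference was -0.17 ± 0.09 (SE, limma adjusted p = 0.184). Ctsd, the main aspartic protease of the lysosome, ran from 6.14 to 6.29 in Control and from 5.94 to 6.35 in Eucommia, where array 4 was highest. Its difference was -0.12 ± 0.11 (SE, limma adjusted p = 0.491).

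Ctsz, a carboxypeptidase that is also abundant in macrophages, had the largest difference among the proteases. It stood at 0.78, 0.37, 0.13 and 0.63 in Control and at -0.26, 0.29, -0.00 and 0.01 in Eucommia. Eucommia array 2 lay above Control array 3, and the difference of -0.47 ± 0.17 (SE, 95% interval -0.85 to -0.09) did not pass (limma adjusted p = 0.0756). Ctsh, an aminopeptidase, differed by -0.23 (limma adjusted p = 0.213), with 4.84 on Eucommia array 1 as its lowest value. Ctsa, which protects beta-galactosidase and neuraminidase in a complex, and Ctsl, a cysteine protease, differed by -0.02 and 0.01, with 95% intervals of -0.23 to 0.19 and -0.23 to 0.26.

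The 7 hydrolases of sugars and lipids were split, 4 with a positive and 3 with a negative difference, and had a median of 0.10. Gaa, which releases glucose from lysosomal glycogen, stood at 3.24, 3.26, 3.19 and 3.14 in Control and at 3.28, 3.42, 3.36 and 3.55 in Eucommia. All Eucommia arrays lay above all Control arrays by a narrow margin, and the difference of 0.19 ± 0.09 (SE) did not pass (limma adjusted p = 0.165). Lipa, which frees cholesterol and fatty acids from esters taken up into the lysosome, stood at 5.15, 5.03, 5.03 and 5.00 in Control and at 4.94, 5.02, 5.49 and 5.18 in Eucommia. Its difference of 0.10 ± 0.13 (SE, limma adjusted p = 0.612) rested on Eucommia array 3 and was -0.01 without that array. Asah1, an acid ceramidase, stood at 0.26 on Control array 1 and between -0.17 and -0.10 on the other Control arrays, against 0.01 to 0.24 in Eucommia (difference 0.18, limma adjusted p = 0.310). Gla, Glb1, Hexa and Neu1, which remove terminal sugars from glycolipids and glycoproteins, differed by -0.22, -0.15, 0.15 and -0.01. Their limma adjusted p-values ran from 0.318 to 0.936, and the groups overlapped.

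Both genes for proteins that serve the hydrolases or carry their products had a negative difference that did not pass. Psap, the precursor of the saposins that present lipids to hydrolases, stood at 5.74, 5.40, 5.31 and 5.66 in Control and at 5.19, 5.32, 5.35 and 4.58 in Eucommia. Eucommia array 4 stood apart below the others, and the difference of -0.42 ± 0.19 (SE, limma adjusted p = 0.145) was -0.24 without it (limma adjusted p = 0.237). Npc2, which hands cholesterol to the membrane for export, stood at 2.83, 2.34, 2.43 and 2.69 in Control and at 2.09, 2.30, 2.18 and 2.25 in Eucommia. Its groups did not overlap, and the difference was -0.37 ± 0.12 (SE, 95% interval -0.65 to -0.08, limma adjusted p = 0.0651).

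Among the autophagosome genes only Gabarapl1 fell. It belongs to the ATG8 family, the small proteins that are coupled to the membrane and bind cargo receptors. Gabarapl1 stood at 8.52, 8.27, 8.53 and 8.60 in Control and at 7.97, 8.11, 8.15 and 8.16 in Eucommia, without overlap. It fell by 0.38 log2 units (SE 0.10, 95% interval -0.61 to -0.15, limma adjusted p = 0.0243), from 8.48 ± 0.14 (SD) to 8.10 ± 0.09. This call was lost without Control array 1, 3 or 4 and without Eucommia array 1 or 2 (limma adjusted p from 0.0523 to 0.0693). It was also lost with quantile normalisation (-0.22, limma adjusted p = 0.150), with cyclic loess normalisation (-0.30, limma adjusted p = 0.0626) and with the replicate number as a block (limma adjusted p = 0.0710).

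The other 4 ATG8-family genes did not pass. Gabarap, the closest relative of Gabarapl1, stood at 6.18, 6.39, 6.29 and 6.21 in Control and at 6.22, 6.32, 6.28 and 6.27 in Eucommia, a log2 difference of 0.00 ± 0.08 (SE, 95% interval -0.19 to 0.20). Gabarapl2 ran from 6.91 to 7.17 in Control and stood at 6.71, 6.64, 6.74 and 7.07 in Eucommia, so that array 4 lay within the Control range and the other 3 Eucommia arrays below it (difference -0.23 ± 0.12 (SE), limma adjusted p = 0.202). Map1lc3a, an LC3 protein, stood at 3.91, 3.69, 4.04 and 3.90 in Control and at 4.16, 4.09, 4.12 and 4.06 in Eucommia. Its groups did not overlap, upwards, and the difference was 0.22 ± 0.10 (SE, limma adjusted p = 0.136). Map1lc3b, the LC3 protein most used as an autophagosome marker, ran from 4.69 to 4.87 in Control and from 4.60 to 5.07 in Eucommia, with a difference of -0.01 (95% interval -0.28 to 0.26).

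None of the 6 genes for initiation and for the coupling of ATG8 proteins passed in limma, and none had an unadjusted p under 0.05. Atg5, part of the complex that completes the coupling to lipid, stood at 0.28, 0.40, 0.23 and 0.22 in Control and at 0.20, 0.16, 0.05 and 0.16 in Eucommia. The groups were separated by a narrow margin, with a difference of -0.14 ± 0.08 (SE, limma adjusted p = 0.282). Atg12, the partner of Atg5, ran from -0.31 to 0.00 in Control and from -0.44 to -0.29 in Eucommia (difference -0.21, limma adjusted p = 0.153). Atg3 and Atg7, the E2-like and E1-like enzymes of the cascade, differed by -0.08 and 0.08. Ulk1, the kinase that starts autophagy, and Becn1, a subunit of the lipid kinase complex that nucleates the membrane, differed by -0.14 and -0.04, and limma adjusted p-values of these 4 genes ran from 0.534 to 0.776. Sqstm1, the receptor p62 that links ubiquitylated cargo to LC3, ran from 4.58 to 4.88 in Control and from 4.62 to 4.74 in Eucommia (difference -0.06 ± 0.09 (SE), limma adjusted p = 0.697).

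Of the 34 genes, 25 had a single probe and 9 had more, which together gave 12 further probes. A further probe of Tfeb was above background on 2 arrays and was not tested. Sqstm1 had a probe on another RefSeq transcript that differed by 0.27 ± 0.13 (SE, limma adjusted p = 0.181), and 2 further probes on the transcript used above that differed by -0.18 and -0.22. A further probe of Atg12 differed by -0.36 ± 0.11 (SE) and passed when all kept probes were tested as separate features (limma adjusted p = 0.0488). The further probes differed in sign from the probe used for Asah1 (-0.14), Becn1 (0.04), Map1lc3b (0.19) and Ctsl (-0.22), as did 1 of 2 for Ctsa (0.06), and none of these passed.

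Hydrolases and autophagosome genes were set side by side as the mean log2 level of each class on each array, as a description. The 13 hydrolases averaged 3.71, 3.56, 3.58 and 3.65 on the Control arrays and 3.46, 3.60, 3.56 and 3.65 on the Eucommia arrays, and the groups overlapped. The 12 autophagosome genes averaged 3.36, 3.37, 3.39 and 3.44 in Control and 3.31, 3.30, 3.31 and 3.33 in Eucommia, so that every Eucommia array lay below every Control array by a small margin. The change was -0.06 for the hydrolases and -0.08 for the autophagosome genes. The mean of the hydrolases minus that of the autophagosome genes was 0.24 ± 0.08 (SD, n = 4) in Control and 0.26 ± 0.08 in Eucommia, a change of 0.02 that was smaller than the spread between arrays. By single genes, 5 hydrolases had a positive and 8 a negative difference (median -0.02), and 3 autophagosome genes had a positive and 9 a negative one (median -0.07). The median was 0.02 over all genes tested and -0.02 over the genes above background on all arrays.

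**Figure D3:**
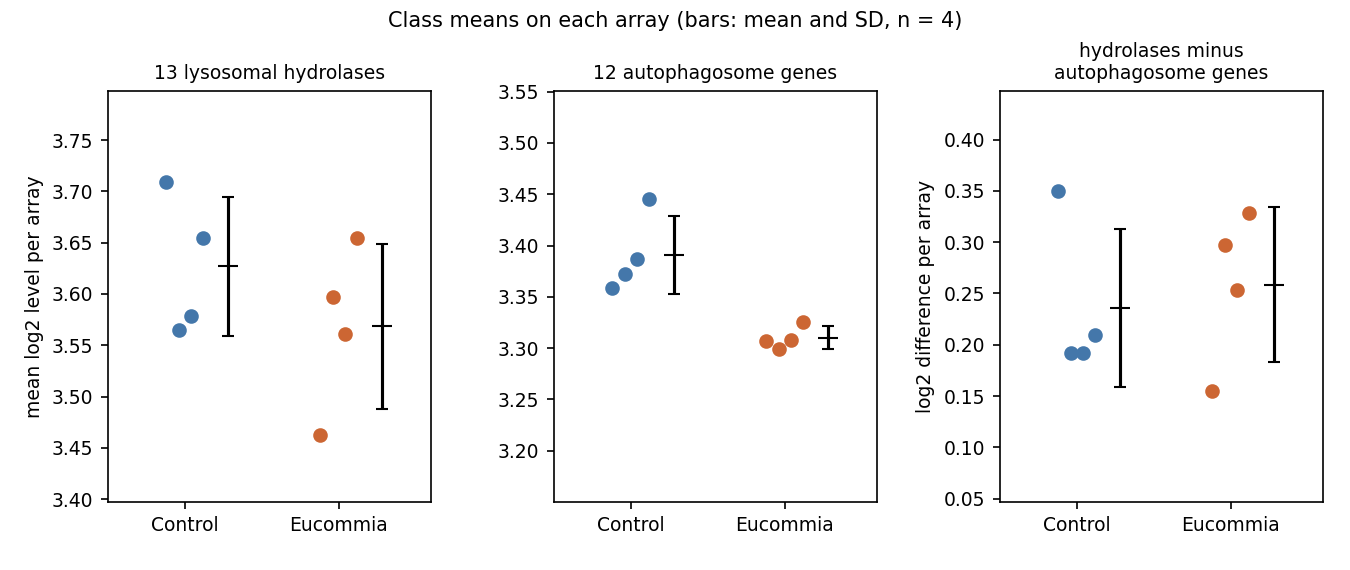
Mean log2 level of the 13 hydrolases and of the 12 autophagosome genes on each array, and the first minus the second, with group means and SD (n = 4). The autophagosome means are 3.36 to 3.44 in Control and 3.30 to 3.33 in Eucommia, while the difference between the classes overlaps between the groups.

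Further genes of the pathway were taken by role from a written list of 131, of which 101 were tested. Of these, 2 rose and 6 fell, where 18.4% of all genes tested rose and 6.17% fell. A positive difference was found for 36 and a negative one for 65 (64.4%, against 47.4% of all genes tested), with a median of -0.07. Of genes above background on all arrays, 11.6% rose, 6.93% fell and 53.7% had a negative difference. The same shares stand beside the calls of each list below. Atp6v0a1, a subunit of the membrane sector of the proton pump, stood at -0.75, -0.60, -0.65 and -0.52 in Control and at -0.13, 0.03, -0.02 and -0.10 in Eucommia. It rose without overlap by 0.57 ± 0.09 (SE, limma adjusted p = 0.00138). Atp6v1e1, of the pump's soluble sector, fell by 0.32 (SE 0.09, limma adjusted p = 0.0282). These were the calls among 24 tested genes of the lysosomal membrane, acidification and delivery.

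Of 25 further hydrolases tested, 2 fell and none rose. Lgmn, the asparaginyl protease legumain, stood at 2.94, 2.43, 2.38 and 2.95 in Control and at 2.13, 2.26, 2.13 and 2.07 in Eucommia, and fell by 0.53 (SE 0.15, limma adjusted p = 0.0339). Ctsc, a protease that activates other proteases, stood at 5.50, 5.54, 5.70 and 5.77 in Control and at 5.34, 5.34, 5.14 and 5.33 in Eucommia, and fell by 0.34 (SE 0.10, limma adjusted p = 0.0354). Neither gene's groups overlapped, and Lgmn was highest on Control arrays 1 and 4.

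Of 18 further autophagosome genes, 1 rose and 1 fell. Uvrag, a subunit of the lipid kinase complex, stood at -0.30, -0.50, -0.48 and -0.54 in Control and at -0.90, -0.97, -0.88 and -0.88 in Eucommia, and fell by 0.45 (SE 0.09, limma adjusted p = 0.00472). Atg9a, the membrane protein that brings lipid to the growing autophagosome, rose by 0.56 ± 0.12 (SE, limma adjusted p = 0.00801) at a low signal, and by 0.08 to 0.62 over the alternative settings, without passing under either setting with normexp background correction. Of 18 receptors and fusion genes, Rab7a, the GTPase of late endosomes, fell by 0.35 (SE 0.09, limma adjusted p = 0.0177), and Vps16, a tethering subunit, by 0.34 (SE 0.11, limma adjusted p = 0.0446). None of 16 genes of TFEB and mTORC1 control passed in limma, 2 had an unadjusted p under 0.05, and the median was -0.07. Several of these calls were lost when a single array was left out (limma adjusted p from 0.0507 to 0.107). The call for Rab7a was lost without Eucommia array 1 or 2, and that for Vps16 without any array except Control 2. Ctsc lost its call without any array except Control 1 or 2, Lgmn without any except Control 2 or 3, and Atp6v1e1 without any except Control 2 or Eucommia 2. Other processing ended calls too. Ctsc was lost with quantile (limma adjusted p = 0.0684) and cyclic loess normalisation (limma adjusted p = 0.0657), and Lgmn with quantile normalisation (limma adjusted p = 0.0537). Vps16 was lost with the percentile taken over probes above background on all arrays (limma adjusted p = 0.0640) and with the mean over probes (-0.23, limma adjusted p = 0.216). With the replicate number as a block, Ctsc, Lgmn, Atp6v1e1, Vps16 and Rab7a were lost (limma adjusted p from 0.0669 to 0.128).

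Markers of liver cell types were set beside these genes, as a description. Of 17 Kupffer cell and macrophage markers 14 were tested, all 14 were above background on all arrays, and all 14 had a negative difference, with a median of -0.45. Their summed level ran from 157 to 257 in Control and from 126 to 220 in Eucommia, in units of the 75th-percentile signal. This sum includes Lyz2, which varied widely within both groups (SD 1.73 log2 units in Control and 2.05 in Eucommia). Lyz2 was highest on Eucommia array 2, where the sum was highest among Eucommia arrays. The ranges of the sum therefore depend in part on Lyz2. The receptor Fcgr2b, which is not confined to macrophages, was the only 1 of the 14 markers that fell (-0.45 ± 0.11 (SE), limma adjusted p = 0.0160). Clec4f, Marco, Cd163, Adgre1 and Vsig4 were among those that did not pass (limma adjusted p from 0.0643 to 0.316). The median shift of the 14 markers from their Control means was 0.42, -0.32, -0.38 and 0.31 on Control arrays 1 to 4 and -0.79, -0.12, -0.56 and -0.38 on Eucommia arrays 1 to 4. Ctsz, Npc2, Psap and Lgmn were highest on Control arrays 1 and 4, where these markers were highest too. Among the Control arrays alone, Lamp1 and the further hydrolases Ctss and Pla2g15 were also highest on arrays 1 and 4. Their differences between the groups were small, -0.03, -0.08 and -0.17 (limma adjusted p = 0.865, 0.798 and 0.680). Over all arrays Lamp1 was highest on Eucommia array 3, and Ctss on Eucommia array 4 lay above Control array 4. Among Eucommia arrays the markers were highest on array 2 and lowest on array 1. Ctsz, Npc2 and Lgmn were highest on array 2 as well, and Ctsz and Npc2 lowest on array 1. Lgmn was lowest on array 4, and Psap was highest on array 3 and lowest on array 4. Lamp2 was highest on Control arrays 4 and 1 (4.21 and 4.15, against 4.12 and 3.95 on Control arrays 3 and 2). Among Eucommia arrays Lamp2 was highest on array 3. Ctsh, Gla, Atg3 and Sqstm1 were also highest on Control arrays 1 and 4. The part of macrophage content in these differences was not tested.

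**Figure D4:**
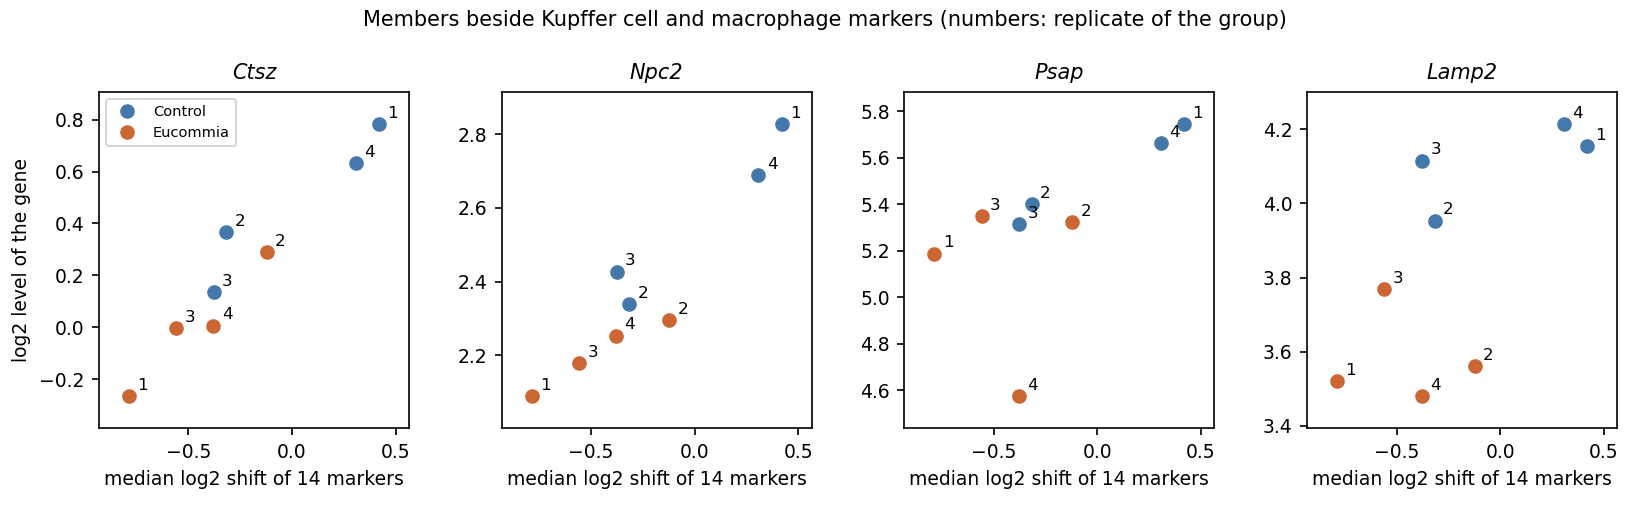
Log2 level of Ctsz, Npc2, Psap and Lamp2 on each array against the median log2 shift of 14 Kupffer cell and macrophage markers from their Control means. Control arrays 1 and 4 have the highest marker shift (0.42 and 0.31) and the highest Ctsz, Npc2 and Psap. Lamp2 on the 4 Control arrays lies above the 4 Eucommia arrays.

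Among markers of the other liver cells, 8 of 10 hepatocyte genes had a negative difference (median -0.20), and their summed level ran from 5489 to 6230 in Control and from 4761 to 5589 in Eucommia. Transferrin (Tf) fell by 0.55 (limma adjusted p = 0.00709). Of 6 endothelial markers Cdh5 and Eng rose, by 1.01 and 0.45, while Kdr, Lyve1 and Tek differed by -0.26, -0.17 and -0.44 without passing. Pecam1 had a positive difference, larger than that of Cdh5, which did not pass. Pecam1 was well above background on all 4 Eucommia arrays and on no Control array. The summed endothelial level ran from 74.5 to 90.7 in Control and from 67.3 to 78.1 in Eucommia, and Kdr had by far the highest signal in it. Of 8 stellate cell markers Col1a1 rose by 0.83, a call lost with the mean over probes (0.31, limma adjusted p = 0.0834), and the summed level ran from 22.1 to 33.7 and from 32.0 to 40.1. Of 4 cholangiocyte markers Epcam fell by 0.52, and the summed level ran from 1.41 to 2.02 and from 1.34 to 1.47. Cftr was well above background on no Control array and entered the test through the 4 Eucommia arrays alone. It was at least 2.75-fold higher in Eucommia under the reported processing. Over all settings that tested it, the log2 difference of Cftr ran from 0.45 to 2.75. Of 7 lymphocyte and neutrophil markers Cd3d and Ptprc rose, by 0.85 and 0.80, Cd3e differed by -0.53 without passing, and the summed level ran from 1.76 to 2.68 and from 2.77 to 3.23. The call for Ptprc was lost with normexp and quantile normalisation (0.19, limma adjusted p = 0.0557) and with the mean over probes (0.22, limma adjusted p = 0.38). The call for Eng was lost without Control array 2 or 3 or Eucommia array 2, 3 or 4, and that for Epcam without Eucommia array 2 (limma adjusted p from 0.0522 to 0.0792), and Eng also with median centring (0.20, limma adjusted p = 0.295) and with the replicate block (limma adjusted p = 0.0828). With all arrays, limma adjusted p-values of the genes here that passed ran up to 0.0300. For the genes named here that did not pass they ran from 0.0616 (Pecam1) to 0.366 (Tek). The part of all these marker genes in the differences above was not tested.

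Lamp2 passed the test under the reported processing and all 20 alternatives to it, with differences from -0.78 to -0.44. Gabarapl1 passed in 13 of these 21 settings and Mcoln1 in 7. Centring on the median instead of the 75th percentile moved the median of all genes from 0.02 to -0.24, and 18 of the 34 genes then fell, as did 31.7% of all genes. With that centring 12 of the 13 genes with a positive difference, Gaa and Map1lc3a among them, had a negative one, and Mcoln1 alone of the 13 kept its sign.

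**Figure D5:**
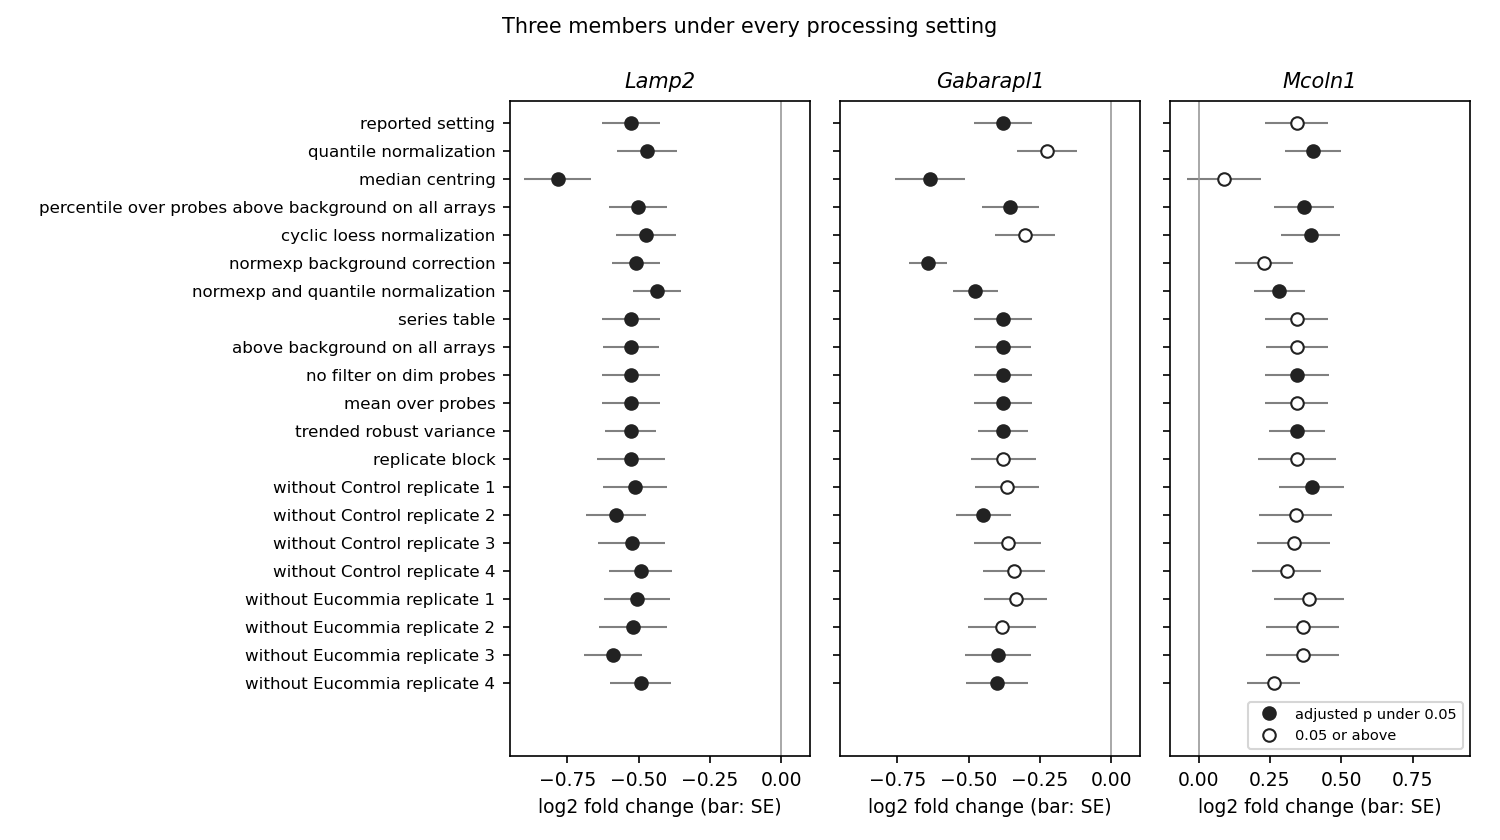
Log2 difference of Lamp2, Gabarapl1 and Mcoln1 with its SE under the reported processing and each of 20 alternatives; filled points passed the adjusted threshold. Lamp2 is filled in all 21 settings, Gabarapl1 in 13 and Mcoln1 in 7.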

How the data were processed

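The deposited scanner files hold intensity values from Agilent Feature Extraction (version 10.1.1.1, per the submitters' processing notes and the file headers). Per the file headers, the processed signal had its background subtracted and spatial trends removed array by array, without normalisation across arrays. Other columns of the deposited files are flags for control spots, spots above background, saturation and outliers. No spot was saturated. The deposited series table equalled the processed signal at 100% of 43379 spots, on a linear scale without centring, with column medians from 26.3 to 32.0.

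Signals were taken to log2, less the 75th percentile of the array. Control and outlier spots were left out and spots of a probe averaged. Probes flagged well above background on 4 or more of the 8 arrays were kept (27724 of 41012). Probe accessions, stripped of versions, were looked up in a RefSeq gene table (GRCr8), where 16336 probes matched, giving 13031 symbols. The kept probe of highest mean signal stood for a gene, and an unnamed probe for itself. Promoters came from RefSeq, GRCr8.

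Eucommia was compared with Control in limma (3.58.1, under R 4.3.3), 2-sided, with Benjamini-Hochberg adjustment over all genes and a threshold of 0.05. The script was tested on simulated data. A fold for a gene not above background in a group is a lower bound, set against the higher of its signal and the lowest signal above background. The 34 genes, the lists of other pathway genes and the markers were chosen with earlier results of these data known. All 34 genes are named, and of each further list the genes past the threshold, at most 4 by smallest p. Some genes that did not pass are named beside them for comparison. Alternatives changed the normalisation, background correction (normexp, with the median signal and an offset of 50), probe filter, choice of probe and variance model, added a replicate block, or left out each array. Slide was not fitted as a block because each slide holds 1 group. The number of arrays limits the precision.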

Additional observations from a re-analysis of the deposited data

Results flagged for a closer look

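Single arrays were checked for standing apart from the other 3 of their group in 102 sets of 4 values, 68 of them from the 34 genes, by the gap to the nearest value as a share of the range (Dixon's 95% limit). Chance gives about 1 in 20, and 3 sets were picked out. Control array 1 held 0.26 for Asah1, the acid ceramidase, against -0.17 to -0.10 on the other Control arrays. Eucommia array 3 held 5.14 for Ctsc, against 5.33 to 5.34 on the other Eucommia arrays. Eucommia array 1 held 0.51 for the endothelial marker Eng, against 0.69 to 0.70.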

How the results depend on the processing

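Over 20 alternatives the 34 genes gave 680 values, of which 34 passed newly and 8 no longer passed. Gabarap turned from 0.00 to a called -0.25 with median centring. The sign changed in 57 values of 18 genes, 12 of them with median centring, and the other 45 in genes whose reported difference was at most 0.14 in size. Of the 34 genes, 18 passed with median centring, 5 with normexp, 6 with normexp and quantile normalisation and 5 with trended robust variances, and 1 to 3 when an array was left out (1 without Control array 4 or Eucommia array 1 or 2); the cause was not tested. The other lysosome and autophagy genes gave 45 calls with median centring, 16 with normexp, 26 with normexp and quantile normalisation, and 4 to 9 when an array was left out (5 without Control array 1 or 4 or Eucommia array 4, 4 without Eucommia array 1, 2 or 3). All genes gave 11742 calls with median centring, 12769 with no filter on dim probes (more genes tested), 3701 among probes above background on all arrays (fewer tested), and 4934 to 5738 when an array was left out. Upward calls made up 74.9% of all calls, 58.4% with quantile, 59.1% with normexp and quantile, 64.7% with cyclic loess and 32.3% with median centring, 42.2% with no filter and 62.8% among probes above background on all arrays. The change in hydrolases minus autophagosome genes ran from -0.01 to 0.06, and the change of the autophagosome mean itself from -0.34 to -0.04.

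Samples with the same replicate number did not deviate together (correlations of -0.04, -0.03, -0.06 and -0.10). Those with unequal numbers correlated at -0.10 to 0.10. The labels do not say whether equal numbers mark a pair, and values of this size cannot decide it. With the replicate block 1 of the 34 genes passed (Lamp2), 4 other pathway genes, and 5137 of all genes.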
